A study of Homo sapiens with 48 samples.

Results

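The libraries described here come from 3 of the 8 stable lines of the series and number 18 of its 48. They were chosen by the line and siRNA in their labels, as those needed to ask what UPF1 with a changed ATPase motif still does when the cell's own UPF1 is depleted. The line called CLIP expresses the CLIP tag alone, and the lines K498A and DE636AA express CLIP-tagged UPF1 with 1 lysine changed to alanine (the residue in the line's name) or with neighbouring aspartate and glutamate (residues 636 and 637) both changed to alanine. All are Flp-In 293 T-REx cells, a derivative of the human embryonic kidney line HEK293 built to take up a transgene at 1 chosen locus. Each line was reverse-transfected for 72 h with 40 nM of a non-targeting siRNA (siNT) or of an siRNA against UPF1 (siUPF1), with 3 libraries per group. All lines, the tag-only control included, carry their own endogenous UPF1 gene. Its depletion could be measured in CLIP, where it was partial, but not in the lines with a UPF1 transgene. Cells and libraries called depleted below are those that received siUPF1. The labels call the triplicates biological replicates and do not say whether a line is a single clone. The 6 libraries of another line, WT, which expresses CLIP-tagged wild-type UPF1 and received the same siRNAs, serve as the reference for unchanged UPF1.

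Nonsense-mediated mRNA decay (NMD) removes transcripts whose stop codon is read as premature, together with many normal transcripts that carry upstream reading frames, long 3′ untranslated regions or introns behind the stop codon. UPF1 is the RNA helicase at its centre. It binds RNA and is phosphorylated by the kinase SMG1, whose partners are SMG8 and SMG9. UPF1 also meets UPF2 and UPF3 proteins bound near exon junctions, and recruits the endonuclease SMG6 and the adaptor SMG5. Walker A, the motif that holds the changed lysine of K498A, binds the phosphates of ATP, and Walker B, the DE motif changed in DE636AA, carries the acidic residues needed for hydrolysis. Many NMD factors are encoded by transcripts that are NMD targets themselves, so that their RNA is known to rise when the pathway is inhibited.

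The codons that differ between the 2 lines are shown in the reference coding sequence of UPF1, because they are the only designed difference between the proteins compared. The sequences were read from GENCODE v29 on GRCh38 (transcript ENST00000262803.9, coding strand, 1118 codons before the stop), and the capitals mark the changed codons. The first line gives codons 490 to 506 and the second codons 628 to 645. The coding sequence of the transgenes was not used here.
Codons around K498: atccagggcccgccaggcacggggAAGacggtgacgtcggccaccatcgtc
Codons around D636 and E637: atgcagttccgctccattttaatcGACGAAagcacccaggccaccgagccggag

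Library totals ran from 25.3 M to 47.1 M expected counts with a median of 32.9 M, and each of the 18 libraries detected between 23556 and 26357 genes. Of the markers of the HEK293 lineage, NEFL, VIM, KRT8, KRT18 and LIN28B were present in every library, at 61.8 CPM or more, and NEFM lay between 0.842 and 2.26 CPM. CPM is the count of a gene scaled to a fixed, normalised library total. The other-cell-type markers PTPRC, CD3E, ALB, CDH5, KRT5, GFAP, HBB and MYH6 reached at most 0.903 CPM, COL1A1 and COL3A1 between 1.02 and 8.46 CPM, and EPCAM between 64.8 and 95.3 CPM. Replicate 2 of CLIP siUPF1 stood apart from the other libraries of its group. It had the smallest total of the 18, 0.631% of its counts came from mitochondrially encoded genes against 2.32% and 2.13% in replicates 1 and 3, and its UPF1 level was 36.8 CPM against 18.2 and 17.7 CPM. The interaction counts over all genes and of the main lists are therefore given with and without it.

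UPF1 was the target of the siRNA and was measured first. In CLIP it read 105, 106 and 113 CPM with siNT and 18.2, 36.8 and 17.7 CPM with siUPF1, so that every siUPF1 library lay below every siNT library. In K498A it read 5566, 4821 and 5882 CPM with siNT and 6023, 5466 and 6405 CPM with siUPF1. In DE636AA it read 4902, 6238 and 5703 CPM and 6340.0, 7078 and 8235 CPM. The transgene thus supplied most UPF1 reads in both mutant lines, and reads of the endogenous gene cannot be told apart from it. The UPF1 response to siUPF1 was -2.17 in CLIP, 0.14 in K498A and 0.36 in DE636AA on the log2 scale, and only the first was called (adjusted p = 4.83e-13, 0.559 and 0.0786).

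The main measure was an interaction: the mean of the K498A and DE636AA responses, each siUPF1 minus siNT, minus the CLIP response. It is negative where knockdown raised a gene less, or lowered it more, in the mutant lines than in tag-only cells. It was estimated for 19129 genes by the quasi-likelihood test of edgeR with Benjamini-Hochberg adjustment, and a gene was called at an adjusted p under 0.05. The interaction was called for 4380 genes, 22.9% of those tested, of which 2745 (14.3%) were lower and 1635 (8.55%) higher. At a size of 2-fold or more, 294 were lower and 238 higher. Without CLIP siUPF1 replicate 2 the calls came to 2145 lower (11%) and 1068 higher (5.5%), and 1661 lower and 857 higher genes were called in the same direction both times. A correction of each library for the GC content of genes left 2436 lower and 2236 higher calls, so that the lower ones made up 52.1% of the calls in place of 62.7%.

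By siRNA, many more genes differed in the depleted cells than in the controls. With siNT the mean of the mutant lines differed from CLIP in 361 genes (1.89%, 177 or 0.925% higher and 184 or 0.962% lower), a count that depended on the fit. It was 3 higher and 4 lower without CLIP siNT replicate 1, 2 and 0 when only the lines compared were fitted, 433 and 381 with DESeq2, 600 and 622 without CLIP siUPF1 replicate 2, 710 and 710 with GC correction, and 911 and 609 with a replicate block. With siUPF1 it differed in 7761 genes (40.6%, 3489 or 18.2% higher and 4272 or 22.3% lower). Each mutant line alone gave an interaction of the same kind, with 1830 lower (9.57%) and 769 higher (4.02%) genes in K498A, 13.6% in all, and 2222 lower (11.6%) and 1208 higher (6.32%) in DE636AA, 17.9% in all. Without CLIP siUPF1 replicate 2 there were 1501 lower and 563 higher in K498A, and 1787 and 935 in DE636AA. These comparisons share the CLIP libraries, and their numbers are not independent. The K498A and DE636AA responses, which share no library, were compared directly: edgeR called 0 genes (0% of 19129), DESeq2 called 0, and 262 genes had an unadjusted p under 0.05. That is fewer than this threshold gives when no gene differs, so the fit may overstate the spread for this comparison. A replicate block gave 0 higher and 0 lower as well. With no filter on low counts 18 genes were higher in K498A and 24 lower. The median standard error of that difference was 0.211 on the log2 scale, so that moderate differences between the 2 changes could not be detected.

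Known NMD targets rose with knockdown in tag-only cells, and in the mutant lines most rose less. All 15 were called higher in CLIP (25.1% of all genes were), 9 in K498A (16.2%), 12 in DE636AA (16.7%) and 1 in WT (14%). The members of this and the later gene lists were chosen with earlier results of these data known. Their counts are therefore descriptions and no independent test. Their median response was 1.00 in CLIP, 0.56 in K498A, 0.47 in DE636AA and 0.0067 in WT on the log2 scale, beside -0.0073, -0.0050, -0.021 and 0.0051 over all genes. The interaction was called lower for 10 of the 15 and higher for 0, against 14.3% and 8.55% of all genes, with a median of -0.60 beside -0.013. Without CLIP siUPF1 replicate 2 it was called lower for 9, with a median of -0.58. With siNT 0 of the 15 differed between the mutant lines and CLIP.

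The size of the difference varied from gene to gene. RP9P, a pseudogene whose reads can be confused with those of the gene it was copied from, read 6.34, 6.63 and 7.31 CPM in CLIP siNT and 37.9, 23.3 and 37.5 CPM in CLIP siUPF1. With siUPF1 it read 14.3, 14 and 14.2 CPM in K498A and 13.7, 11.9 and 11.2 CPM in DE636AA, below every CLIP siUPF1 library but above every siNT library of the 3 lines. Its interaction was -1.49 (SE 0.18, adjusted p = 7.41e-08). GADD45A, a stress-induced growth arrest gene, read 94.2, 112 and 99.8 CPM in CLIP siUPF1, 67.6, 62.1 and 61.7 CPM in K498A siUPF1 and 62, 75.6 and 69.7 CPM in DE636AA siUPF1. The mutant libraries all lay below the CLIP libraries, and neither mutant response was called (adjusted p = 0.204 and 0.196). Its interaction was -0.87 (SE 0.16, adjusted p = 0.000126). BAG1, a co-chaperone, read 47, 45.9 and 49.6 CPM with siNT and 174, 302 and 228 CPM with siUPF1 in CLIP, against 120.4, 121 and 151 CPM in K498A siUPF1 and 113, 103 and 139.9 CPM in DE636AA siUPF1. It kept a response of 1.51 in K498A, 1.50 in DE636AA and 1.00 in WT beside 2.30 in CLIP, and its interaction was -0.80 (adjusted p = 0.000797).

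The other targets called lower were ARFRP1, a Golgi GTPase, at -0.78, UPP1, a uridine phosphorylase, at -0.74, DNAJB2, a co-chaperone, at -0.71, ERN1, a sensor of unfolded proteins, at -0.64, DDIT3, a stress transcription factor, at -0.60, GABARAPL1, an autophagy gene, at -0.54 and TBL2 at -0.41. The call of DDIT3 was lost without CLIP siUPF1 replicate 2 (adjusted p = 0.201). DNAJB2 showed no called response in either mutant line (0.036 in K498A and -0.002 in DE636AA, beside 0.73 in CLIP). For 9 of the 15 targets all 6 mutant siUPF1 libraries lay below all 3 CLIP siUPF1 libraries, which held for 13.4% of all genes, while all 6 lay above in 11.2%. For the 15 targets the K498A response minus the DE636AA response ran from -0.35 (GADD45B) to 0.37 (RP9P), and 0 of these differences were called.

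For the other 5 targets no difference between the mutant lines and tag-only cells passed the test. ATF4, a stress transcription factor whose transcript carries upstream reading frames, read 759, 764 and 809 CPM in CLIP siNT and 1294, 1378 and 1388 CPM in CLIP siUPF1. It read 1441, 1338 and 1562 CPM in K498A siUPF1 and 1432, 1398 and 1570.0 CPM in DE636AA siUPF1, so that K498A overlapped with CLIP and DE636AA lay just above it. Its interaction was 0.012, with a 95% interval from -0.19 to 0.21 (intervals are not adjusted for the number of genes). In WT it read 840.2, 869 and 906 CPM with siNT and 872, 894 and 1053 CPM with siUPF1, a response that was not called (0.11, adjusted p = 0.353), and the mutant response exceeded it by 0.70 (adjusted p = 6.37e-06). GADD45B, MAP3K14 and ATF3, likewise called higher in the 3 lines, had interactions of 0.038 (95% interval -0.52 to 0.59), -0.10 (-0.42 to 0.21) and -0.28 (-0.64 to 0.077). Their mutant responses exceeded the WT response by 1.21, 0.58 and 1.02, all called (adjusted p = 0.0044, 0.0186 and 0.000161). The fifth target without a call, CDKN1A, responded by 0.41 in CLIP, 0.073 in K498A and 0.024 in DE636AA, with an interval from -0.68 to -0.035. RNA levels do not separate decay from synthesis, and in bulk RNA fewer cells of a type and less RNA per cell cannot be told apart. DDIT3, MAP3K14, GABARAPL1 and CDKN1A share 355, 713, 329 and 146 exonic bases with a gene on the other strand. Overlaps are not given for every gene named in the text. SNHG16, SNHG7 and NT5C, named below, share 1639, 1094 and 913 exonic bases with a gene on the other strand.

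**Figure D1:**
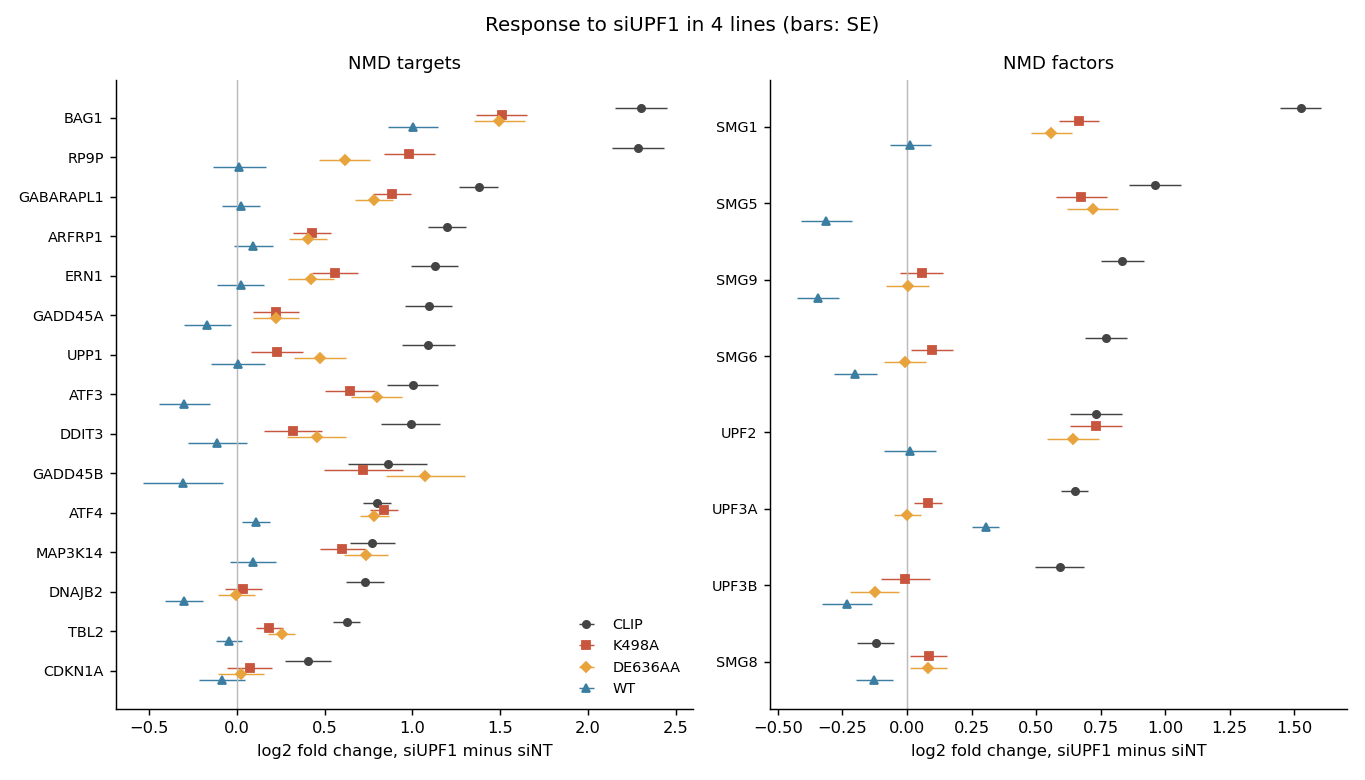
Response to siUPF1 (log2 fold change, horizontal axis, bars are the standard error) of the 15 NMD targets and of 8 NMD factors in CLIP, K498A, DE636AA and WT, with 3 libraries per group and genes ordered by the CLIP response. RP9P, GADD45A and SMG9 have both mutant points far left of the CLIP point, while for ATF4 and UPF2 the mutant points lie close to the CLIP point and the WT point lies near 0.

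The genes of the NMD machinery also split into these groups. Of 9 factors other than UPF1, 8 were called higher in CLIP, 4 in K498A, 4 in DE636AA and 1 in WT, where 2 were lower. Over all genes 25.1%, 16.2%, 16.7% and 14% were called higher in these responses, and 13.3% lower in WT. The interaction was called lower for 5 (6 without CLIP siUPF1 replicate 2) and higher for 0, beside 14.3% and 8.55% of all genes. Its median was -0.61. SMG1, the kinase of UPF1, read 344, 378 and 344 CPM with siNT and 1090.0, 983 and 995 CPM with siUPF1 in CLIP. It read 558, 579 and 524 CPM in K498A siUPF1 and 549, 576 and 504 CPM in DE636AA siUPF1, between the siNT and the depleted CLIP libraries with no overlap with either. SMG1 has pseudogene copies that can share reads, so its level is uncertain. Its response was 1.52 in CLIP, 0.67 in K498A, 0.56 in DE636AA and 0.013 in WT, and its interaction was -0.91 (SE 0.10, adjusted p = 8.36e-09).

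For SMG9, SMG6, UPF3A and UPF3B no response remained that passed the test in either mutant line. SMG9, a partner of the kinase, read 71.1, 69.4 and 70.0 CPM in CLIP siNT, 110.2, 149 and 116 CPM in CLIP siUPF1, 68.5, 70.9 and 74 CPM in K498A siUPF1 and 76.1, 67.8 and 75.2 CPM in DE636AA siUPF1. The 6 mutant libraries lay around the level of CLIP siNT and below all CLIP siUPF1 libraries. Its interaction was -0.81 (SE 0.10), that of SMG6 -0.73 (0.10), that of UPF3B -0.66 (0.12) and that of UPF3A -0.61 (0.065), with SEs in parentheses and the largest adjusted p at 6.29e-05. SMG6 shares 2419 exonic bases with HIC1 on the other strand, and the strand setting of the counting was not given in the sources used here. UPF3A was the only factor whose mutant response was called below that of WT (-0.26, adjusted p = 0.00751), and it rose by 0.31 in WT.

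UPF2 and SMG5 kept most of their response. UPF2, the partner that activates the helicase, read 103, 102 and 99.3 CPM in CLIP siNT and 192, 156 and 158 CPM in CLIP siUPF1. It read 86.7, 90.0 and 82 CPM with siNT and 147, 154 and 129 CPM with siUPF1 in K498A, and 86.2, 85.3 and 76.2 and 139, 131 and 116 CPM in DE636AA. Every mutant siUPF1 library was below every CLIP siUPF1 library, but so was every mutant siNT library below those of CLIP, and the responses were 0.73, 0.73 and 0.64. The interaction was -0.045 with a 95% interval from -0.29 to 0.20, and the mutant response exceeded that of WT by 0.68 (adjusted p = 0.000305). SMG5 read 297, 471 and 349 CPM in CLIP siUPF1, 266, 265 and 278 CPM in K498A siUPF1 and 278, 261 and 303 CPM in DE636AA siUPF1, with K498A below CLIP and DE636AA overlapping with it. Its interaction was -0.26 (95% interval -0.51 to -0.018) and moved to -0.057 without CLIP siUPF1 replicate 2, the highest of the 3 CLIP libraries. In WT SMG5 fell by 0.31, and the mutant response exceeded the WT response by 1.01 (adjusted p = 4.99e-07). SMG8 responded in none of the 3 lines by the test (-0.12, 0.084 and 0.082).

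**Figure D2:**
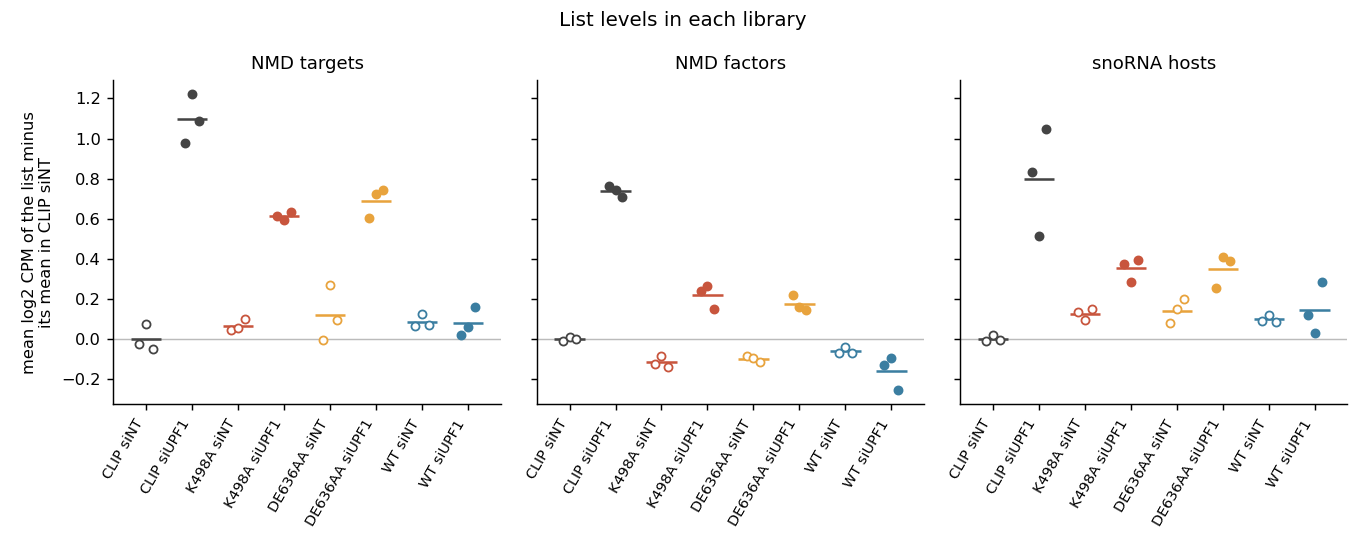
Mean log2 CPM of the NMD target, NMD factor and snoRNA host lists in each library, relative to the mean of CLIP siNT (vertical axis), for 8 groups of 3 libraries. Open points are siNT, filled points siUPF1 and lines group means. The means of depleted K498A and DE636AA lie between those of depleted CLIP and WT in all 3 panels, with libraries at 0.591 to 0.743 against 0.977 to 1.22 for CLIP and 0.0187 to 0.159 for WT in the NMD target panel.

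Averaged over the 15 targets, the level relative to CLIP siNT was 1.1 ± 0.122 (SD, n = 3) in CLIP siUPF1, 0.614 ± 0.022 in K498A siUPF1, 0.69 ± 0.0765 in DE636AA siUPF1 and 0.0793 ± 0.0721 in WT siUPF1. The 4 ranges did not overlap except for K498A and DE636AA. The 9 factors stood at 0.739 ± 0.0289, 0.219 ± 0.0616, 0.174 ± 0.0393 and -0.161 ± 0.0823 in the same order. For the snoRNA hosts the values were 0.798 ± 0.271, 0.352 ± 0.0603, 0.351 ± 0.0853 and 0.144 ± 0.129, and here the highest WT library (0.284) passed the lowest K498A (0.283) and DE636AA (0.253) libraries.

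Host genes of small nucleolar RNAs (snoRNA), whose spliced transcripts are mostly non-coding and are known NMD substrates, mostly responded less in the mutant lines. Of 18 tested hosts 14 were called higher in CLIP and 1 lower, 7 and 1 in K498A, 6 and 1 in DE636AA, and 3 and 0 in WT. Over all genes 25.1%, 16.2%, 16.7% and 14% were called higher in these responses and 22.3%, 16.5%, 17.6% and 13.3% lower. The interaction was called lower for 14 and higher for 1, beside 14.3% and 8.55% of all genes, with a median of -0.65. Without CLIP siUPF1 replicate 2 it was called lower for 13 and higher for 0. C6orf48, which shares 418 exonic bases with a transcript on its own strand, had the lowest interaction of the list. It read 31.8, 34.6 and 31.3 CPM in CLIP siNT and 129, 117 and 153 CPM in CLIP siUPF1, against 52.2, 47 and 46.9 CPM in K498A siUPF1, 46.3, 50.7 and 52.4 CPM in DE636AA siUPF1 and 49.4, 42.8 and 48.2 CPM in WT siUPF1. The depleted mutant libraries lay in the range of depleted WT or just above it, and all were below every depleted CLIP library. Its interaction was -1.76 (SE 0.14, adjusted p = 8.22e-12), while its mutant response differed from that of WT by -0.023 (adjusted p = 0.965).

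GAS5, the host of many C/D box snoRNAs, read 53.7, 54.4 and 53.3 CPM in CLIP siNT and 94, 66 and 108 CPM in CLIP siUPF1. It read 58.2, 54.1 and 56.5 CPM in K498A siUPF1 and 52.3, 60.7 and 53 CPM in DE636AA siUPF1, all below CLIP siUPF1, with an interaction of -0.90 (SE 0.14, adjusted p = 9.18e-06). SNHG17 at -1.25 and SNHG12 at -0.48 likewise had no called response in a mutant line. SNHG7, SNHG15 and EPB41L4A-AS1 were lower than in CLIP by 0.94, 0.50 and 0.59 yet rose in both mutant lines. EPB41L4A-AS1, which shares 1659 exonic bases with EPB41L4A on the other strand, rose by 0.89 in K498A and 0.80 in DE636AA and by 1.44 in CLIP, with an uncalled response of 0.044 in WT. Its mutant response exceeded that of WT (adjusted p = 5.36e-07), as did those of SNHG7 (adjusted p = 0.00249) and SNHG1 (adjusted p = 0.0462). SNHG3 fell in all 3 lines by 0.46, 0.46 and 0.52. The 1 host called higher, SNHG16 (0.29), was not called without CLIP siUPF1 replicate 2 (adjusted p = 0.31).

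Targets of ATF4, the amino acid and stress genes of the integrated stress response, had a lower response in the mutant lines in 13 cases. The interaction of ATF4 itself was not called. Of 30 tested, these 13 were called lower in the interaction and 0 higher, beside 14.3% and 8.55% of all genes. The median was -0.38, and 11 were called lower without CLIP siUPF1 replicate 2. STC2, a secreted stress glycoprotein, read 116, 131 and 145 CPM in CLIP siNT, 415, 482 and 515 CPM in CLIP siUPF1, 196, 194 and 229 CPM in K498A siUPF1 and 209.6, 193 and 240.5 CPM in DE636AA siUPF1. The depleted mutant libraries lay above siNT and below depleted CLIP without overlap, with an interaction of -1.16 (SE 0.16, adjusted p = 1.45e-06). SLC7A5, a large neutral amino acid transporter, had -0.90 (adjusted p = 0.000819) and NUPR1, a stress protein, -0.91 (adjusted p = 0.0475), the latter not called without CLIP siUPF1 replicate 2 (adjusted p = 0.0681). PYCR1, an enzyme of proline synthesis, rose in CLIP by 0.62 and fell in K498A by 0.57, with an interaction of -1.08 (adjusted p = 2.98e-05). It read 29, 44.2 and 35.5 CPM in CLIP siUPF1, 18.7, 16.2 and 20.9 CPM in K498A siUPF1 and 19.4, 20.7 and 24.3 CPM in DE636AA siUPF1, and every mutant library was below every CLIP library. In siUPF1 cells 20 of the 30 were lower in the mutant lines than in CLIP and 1 higher, beside 22.3% and 18.2% of all genes.

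The genes with the lowest interactions overall included transcripts that returned to or below the siNT level in both mutant lines. TSR2, a ribosome assembly factor, read 95.4, 94.9 and 107 CPM in CLIP siNT and 211, 226 and 228 CPM in CLIP siUPF1. It read 80.3, 78.7 and 95.2 CPM with siNT and 67.1, 71.4 and 71.7 CPM with siUPF1 in K498A, and 85.9, 71.2 and 90.2 CPM and 63.4, 63.5 and 68.9 CPM in DE636AA. Knockdown thus raised TSR2 in CLIP and lowered it in the mutant lines, and its interaction was -1.47 (SE 0.10, adjusted p = 8.98e-13). PITHD1 followed the same course, with 143, 172 and 169 CPM in CLIP siUPF1, 54.2, 56.4 and 58.5 CPM in K498A siUPF1 and 48.9, 46.1 and 49.1 CPM in DE636AA siUPF1. Its depleted mutant libraries lay below every library of CLIP and WT, its interaction was -1.43 (SE 0.11), and its mutant response was also below that of WT (-0.57, adjusted p = 0.000353). NT5M, a mitochondrial nucleotidase of low level, read 6.89, 5.75 and 6.82 CPM in CLIP siNT and 7.3, 12.4 and 11.1 CPM in CLIP siUPF1, against 4.51, 3.12 and 4.72 CPM in K498A siUPF1 and 3.02, 4.18 and 5.12 CPM in DE636AA siUPF1. Its interaction of -1.95 (SE 0.32) was the lowest among the named genes. Its siNT level was higher in the mutant lines than in CLIP by 0.63 on the log2 scale, a difference that was not called (adjusted p = 0.121).

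Others rose in CLIP and rose less, or not by the test, in the mutant lines. WDR83, a WD-repeat scaffold protein, responded by 1.82 in CLIP, 0.32 in K498A and 0.27 in DE636AA, but it shares exonic bases with 4 neighbouring genes on the other strand, 1374 of them with 1, and its count is uncertain. TRPM4, a calcium-activated cation channel, read 15.8, 26.3 and 17.1 CPM in CLIP siUPF1, 10.3, 8.95 and 10.3 CPM in K498A siUPF1, 7.81, 9.53 and 10.6 CPM in DE636AA siUPF1 and 9.47, 9.01 and 11.9 CPM in WT siUPF1. The mutant and WT libraries overlapped, all below CLIP, and TRPM4 rose in WT as well (0.95, adjusted p = 0.000134). NT5C, the cytosolic relative of NT5M, had an interaction of -1.43, the long non-coding LINC01002 -1.42 and the methyltransferase VCPKMT -1.37. PHF21B, at -1.34, and EPHA10, a receptor of the ephrin family, at -1.41, rose in CLIP and fell in both mutant lines and in WT.

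Among the highest interactions, most genes fell with knockdown in tag-only cells and fell less or not at all in the mutant lines. MAP2K6, a kinase that activates p38, read 22.7, 21 and 18.5 CPM in CLIP siNT and 3.3, 2.92 and 2.46 CPM in CLIP siUPF1, against 9.52, 9.44 and 7.97 CPM in K498A siUPF1, 9.01, 7.99 and 5.6 CPM in DE636AA siUPF1 and 15.9, 14.7 and 12.7 CPM in WT siUPF1. The order CLIP, mutant lines, WT held in every library. Its interaction was 1.83 (SE 0.23, adjusted p = 2.12e-07), and its mutant response was below that of WT by 0.69 (adjusted p = 0.0394). PCDH18, a protocadherin, SGMS2, a sphingomyelin synthase, and CAP2, an actin regulator, fell in CLIP by 2.12, 2.17 and 1.82 and in K498A by 0.92, 1.02 and 0.70. Their interactions were 1.27, 1.17 and 1.15. LMOD1, a muscle actin nucleator, TMEM14A and SLC46A3, a lysosomal transporter, had no called response in a mutant line, with interactions of 1.29, 1.21 and 1.16.

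A few genes moved in opposite directions. ACTA2, the actin of smooth muscle, read 26.6, 21.6 and 25.5 CPM in CLIP siNT and 10.9, 13.3 and 11.2 CPM in CLIP siUPF1. In K498A it read 21.5, 18 and 18 CPM with siNT and 26.2, 22.7 and 26.2 CPM with siUPF1, in DE636AA 20.2, 19.6 and 18.6 CPM and 28.3, 31.9 and 39.7 CPM, and in WT 27.6, 22.2 and 24.2 CPM and 11.2, 10.0 and 8.17 CPM. It therefore fell in CLIP and in WT, rose in DE636AA, and had a response of 0.38 in K498A that was not called (adjusted p = 0.051). Its interaction was 1.64 (SE 0.19), and the mutant response exceeded that of WT by 1.90 (adjusted p = 2.04e-08). DNAH6, an axonemal dynein, fell in CLIP and WT by 0.70 and 0.62 and rose in K498A and DE636AA by 0.48 and 0.65. SAMD9, an antiviral factor, and FILIP1, a filamin-interacting protein, fell in CLIP and rose in DE636AA, FILIP1 also in K498A, with interactions of 1.38 and 1.22. ACTA2 shares 516 exonic bases with ACTA2-AS1 and 380 with FAS on the other strand, and FAS itself had an interaction of 0.81 (adjusted p = 0.00236).

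**Figure D3:**
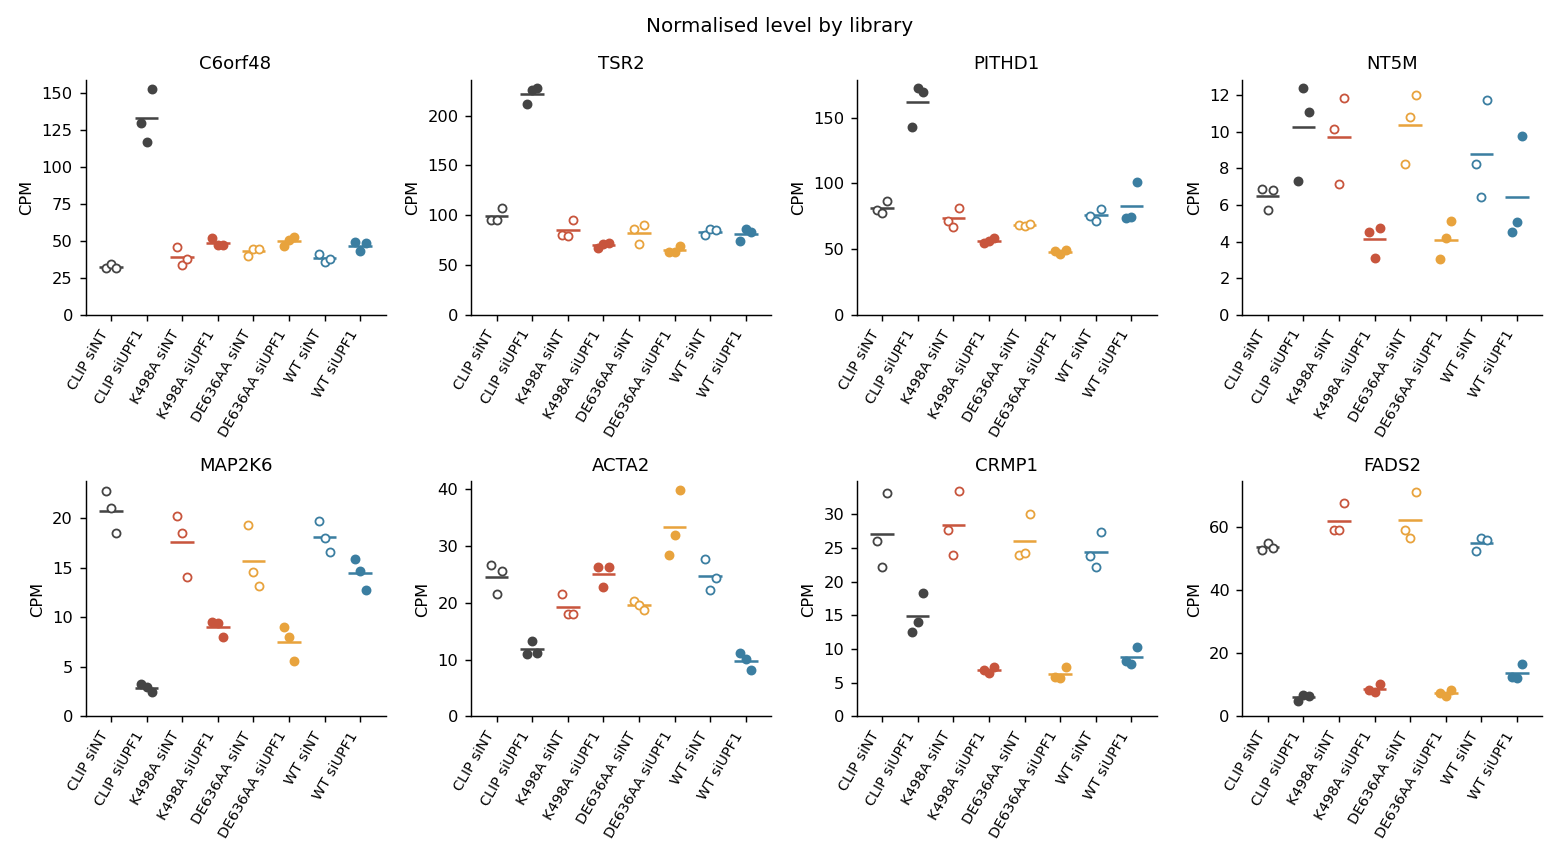
CPM (vertical axis from 0) of 8 named genes in the 24 libraries of CLIP, K498A, DE636AA and WT. Open points are siNT, filled points siUPF1 and lines group means. TSR2 and PITHD1 rise in CLIP only, MAP2K6 is ordered CLIP, mutant lines, WT after knockdown, ACTA2 falls in CLIP and WT but not in the mutant lines, and FADS2 falls in all 4 lines.

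Some responses were larger with the ATPase-motif mutants than with the tag alone. TIMP3, an inhibitor of metalloproteinases, read 44.8, 49.5 and 49.1 CPM in CLIP siUPF1, 99.8, 89.6 and 92.3 CPM in K498A siUPF1, 109, 111 and 114 CPM in DE636AA siUPF1 and 72.2, 64.6 and 74.5 CPM in WT siUPF1. The ranges did not overlap, with CLIP lowest and DE636AA highest. With siNT it was already higher in the mutant lines by 0.45 (adjusted p = 0.0104), and the interaction was 0.65 (SE 0.13, adjusted p = 0.000184). STMND1 at 0.81, SEPP1, which encodes selenoprotein P, at 1.02 and FILIP1L at 0.87 rose in both mutant lines, in K498A by 1.28 to 1.69. STMND1 and SEPP1 also rose in WT, by 1.64 and 1.14. SEPP1 shares 1452 exonic bases with CCDC152 on the other strand. Lower in the mutant lines were CRMP1, a neuronal cytoskeletal phosphoprotein, MAPK8IP2, a scaffold of the JNK pathway, MAPK11, a p38 kinase, and FAM64A, a mitotic regulator. CRMP1 read 12.5, 14 and 18.3 CPM in CLIP siUPF1, 6.9, 6.48 and 7.34 CPM in K498A siUPF1, 5.88, 5.75 and 7.38 CPM in DE636AA siUPF1 and 8.25, 7.71 and 10.3 CPM in WT siUPF1. MAPK8IP2 and MAPK11 had no called response in CLIP (-0.11 and -0.14), and fell in both mutant lines and in WT. With siUPF1 MAPK8IP2 read 45.3, 96.9 and 62.5 CPM in CLIP, a spread that covered its siNT range, and 27.7, 27.2 and 34.5 CPM in K498A and 21.5, 24.3 and 31.2 CPM in DE636AA, all lower. FAM64A fell by 1.51 in K498A and 1.37 in DE636AA, beside 0.44 in CLIP, and its mutant response was below that of WT by 1.09 (adjusted p = 0.000115). FAM64A shares 206 exonic bases with PITPNM3 on the other strand.

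At 5 CPM or more, with clone-named loci and annotated pseudogenes left out, 1133 genes rose and 937 fell in each of CLIP, K498A and DE636AA. Their interaction was not called, which does not show equal responses. ARC, an immediate early gene, was among the 5 with the largest rises by the naming rule. It read 3.28, 3.63 and 2.83 CPM in CLIP siNT and 14.8, 31.9 and 20.8 CPM in CLIP siUPF1, with 25.1, 19.3 and 30.4 CPM in K498A siUPF1, 23, 41.1 and 49.1 CPM in DE636AA siUPF1 and 9.34, 9.5 and 16.9 CPM in WT siUPF1. The depleted CLIP, K498A and DE636AA libraries overlapped, and the mutant response exceeded that of WT by 1.41 (adjusted p = 0.00931). FADS2, a fatty acid desaturase, fell by 3.14 in CLIP, 2.83 in K498A, 3.05 in DE636AA and 2.01 in WT, and HTRA1, a secreted protease, by 2.37, 2.84, 2.85 and 1.59. Both fell further in the mutant lines than in WT (adjusted p = 0.000236 and 0.000317). DHRS2, G0S2, JOSD2 and MCOLN1 rose and HRSP12, MSX1 and NOTCH3 fell in all 4 lines, WT included, and for none of these 7 did the mutant response differ from that of WT by the test. The 95% interval of the interaction was -0.36 to 0.55 for MSX1 and -0.19 to 0.46 for MCOLN1, and the data allow differences within these intervals. It lay above 0 for G0S2 (0.027 to 0.93) and at or below 0 for DHRS2, whose lower bound was -1.23. With siUPF1 G0S2 was higher in the mutant lines than in CLIP by 0.82 (adjusted p = 2.01e-05) and DHRS2 lower by 0.82 (adjusted p = 0.000473). FADS2 shares 490 exonic bases with FADS1 on the other strand.

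Set against wild-type UPF1, the mean response of the mutant lines differed in 1275 genes (6.67%), 548 higher (2.86%) and 727 lower (3.8%). This comparison shares no library with CLIP, but it shares the mutant libraries with the interaction, so both are given side by side. Of the NMD targets 6 had a higher response in the mutant lines than in WT and 0 a lower one. The median difference was 0.50, beside -0.010 over all genes. Of the NMD factors 5 were higher and 1 lower (median 0.37), and of the snoRNA hosts 3 and 0 (median 0.14). The count of NMD targets was 11 when WT siUPF1 replicate 3 was left out.

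Cholesterol synthesis genes had a lower median response in CLIP and in both mutant lines than in WT. Of 19 genes tested, 12 had a lower response in the mutant lines than in WT and 0 a higher one, beside 3.8% and 2.86% of all genes. The median difference was -0.53. By the test 10 fell and 5 rose in CLIP, 9 fell and 1 rose in K498A, 12 fell and 1 rose in DE636AA, and 2 fell and 7 rose in WT. Over all genes 22.3%, 16.5%, 17.6% and 13.3% were called lower in these responses and 25.1%, 16.2%, 16.7% and 14% higher. The median response was -0.31 in CLIP, -0.31 in K498A, -0.36 in DE636AA and 0.19 in WT, and the median interaction was 0.00075. SQLE, the squalene epoxidase, was named after its values were seen. It read 124, 123 and 134 CPM in CLIP siNT and 90.2, 65.8 and 85.7 CPM in CLIP siUPF1, 143, 125 and 132 and 109, 97.2 and 97.4 CPM in K498A, 127, 128 and 142 and 86.1, 88.7 and 87.3 CPM in DE636AA, and 124, 112 and 132 and 152, 144 and 131 CPM in WT. Depleted libraries of the 3 lines lay below their siNT libraries, and those of WT did not. FDFT1, the squalene synthase, also named after its values were seen, fell in CLIP by 0.52, in K498A by 0.50 and in DE636AA by 0.53. Its WT response was 0.17, not called. In the interaction itself 4 members were lower and 2 higher, beside 14.3% and 8.55% of all genes. Those lower were led by LSS, the lanosterol synthase, at -0.81 and MVD, a mevalonate pathway decarboxylase, at -0.75. Those higher were INSIG1, a sterol sensor partner, at 0.61 and IDI1, an isomerase, at 0.51. Without CLIP siUPF1 replicate 2 the counts were 2 and 2, and the median was -0.12. The call of MVD was among those lost without that library (adjusted p = 0.118).

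**Figure D4:**
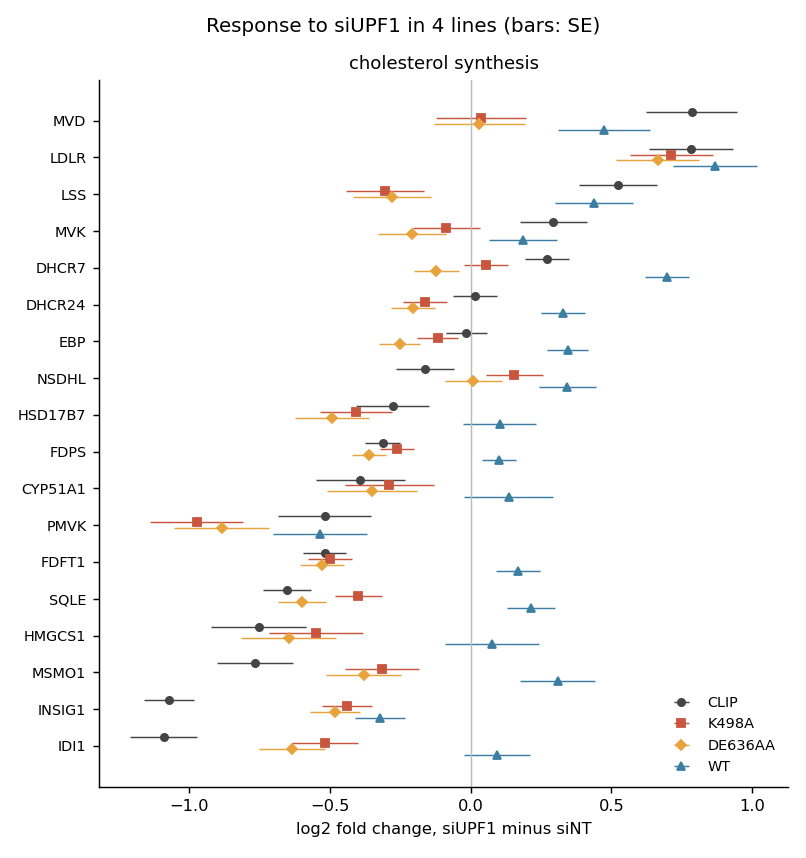
Response to siUPF1 (log2 fold change, horizontal axis, bars are the standard error) of 18 cholesterol synthesis genes in CLIP, K498A, DE636AA and WT, ordered by the CLIP response. For FDFT1 and SQLE the CLIP and mutant points lie together left of 0, and the WT points lie at 0.17 and 0.21.

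Of 16 ERK output and feedback genes 3 were called higher in the interaction and 0 lower, beside 8.55% and 14.3% of all genes: ETV1, a transcription factor of the ETS family, at 1.06, DUSP5, an ERK phosphatase, at 0.78 and IER3 at 0.78. The counts were also 3 and 0 without CLIP siUPF1 replicate 2. With knockdown 10 of the 16 were called lower in each of CLIP, K498A, DE636AA and WT, beside 22.3%, 16.5%, 17.6% and 13.3% of all genes. Against WT 4 of the 16 had a higher response in the mutant lines and 1 a lower one, beside 2.86% and 3.8% of all genes. ETV1 read 16.9, 17 and 15.9 CPM in CLIP siNT, 10.2, 12.3 and 8.87 CPM in K498A siNT and 12.4, 7.55 and 9.85 CPM in DE636AA siNT. Every mutant siNT library was below every CLIP siNT library, so that its interaction reflects different starting levels as well as different depleted ones. Of 16 immediate early genes EGR1 was higher at 1.20 (adjusted p = 0.00622) and KLF2 lower at -1.47 (adjusted p = 0.000651). Against WT 4 of them had a higher response in the mutant lines and 0 a lower one. EGR1 read 11.9, 14.4 and 8.41 CPM in CLIP siUPF1, 18.6, 22.3 and 13.6 CPM in K498A siUPF1, 32.8, 44.5 and 29.9 CPM in DE636AA siUPF1 and 7.43, 10.0 and 6.44 CPM in WT siUPF1. DE636AA lay above all other libraries, and K498A overlapped with CLIP.

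The lists in this paragraph had members called in both directions apart from the reference genes, beside 14.3% lower and 8.55% higher over all genes. Of 25 splicing factors with poison exons 5 were lower, RBM39 (-0.45), SRSF10 (-0.45) and HNRNPA2B1 (-0.40) among them, and 2 higher, with PTBP2 at 0.68. Without CLIP siUPF1 replicate 2 the list had 7 lower and 0 higher. Of 18 chaperones and unfolded protein response genes of the endoplasmic reticulum 4 were lower, with CANX at -0.40, and 3 higher, DNAJB11 (0.50), HSPA5 (0.47) and HERPUD1 (0.44), of which HSPA5 alone was called without that library. Of 22 exon junction and general decay factors 3 were lower, RBM8A (-0.46) at the head, and 2 higher, CNOT7 (0.60) and XRN2 (0.33), and neither of the higher ones was called without CLIP siUPF1 replicate 2. Of 15 p53 targets 3 were lower, PLK3 (-0.60), XPC (-0.49) and SESN1 (-0.38), and 1, FAS, higher, with PLK3 not called without that library. Of 17 proliferation genes TYMS (-0.54) and PLK1 (-0.47) were lower and BUB1 (0.27) higher, and only TYMS of these was called without it. Of 14 interferon-stimulated genes IFIT1 (1.72), IFIH1 (0.51) and DDX58 (0.47) were higher and MX1 (-0.82) lower, with DDX58 not called without it. IFIT1 read 1.12, 0.487 and 1.28 CPM in CLIP siUPF1 against 3.09, 3.15 and 2.84 CPM in K498A siUPF1 and 3.02, 2.94 and 3.13 CPM in DE636AA siUPF1. Of 12 reference genes 0 were called by edgeR, and 2 were lower without that library.

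The interaction varied with the base composition of genes, and less so without CLIP siUPF1 replicate 2. Over 11706 genes Spearman's rho between the interaction and the GC content of the gene was -0.57, and -0.22 without CLIP siUPF1 replicate 2, a description across genes that share libraries. The change of that library from CLIP siNT had a rho of 0.7 with GC content, against 0.12 and 0.29 in replicates 1 and 3, and siNT replicate 3 of K498A and of DE636AA deviated from its own group with a rho of 0.64 and 0.7. Among 83 cytoplasmic ribosomal protein genes, which have near-identical copies, 8 were called higher and 0 lower, with a median of 0.20, and 3 higher and 1 lower without CLIP siUPF1 replicate 2. With GC correction 22 were higher and 0 lower, and 14 and 1 without that library as well. With siUPF1 alone 49 of the 83 were higher in the mutant lines than in CLIP and 1 lower, beside 18.2% and 22.3% of all genes. By gene type, 17.4% of 14077 protein-coding genes were called lower and 10.2% higher. For 2443 long non-coding genes the shares were 3.72% and 5.69%, with a median standard error of 0.393 against 0.155 for protein-coding genes, so that the types differ in precision as well. The part of base composition in the individual calls was not tested beyond the GC correction, under which the NMD target, factor and snoRNA host lists had 9, 6 and 14 members called lower.

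**Figure D5:**
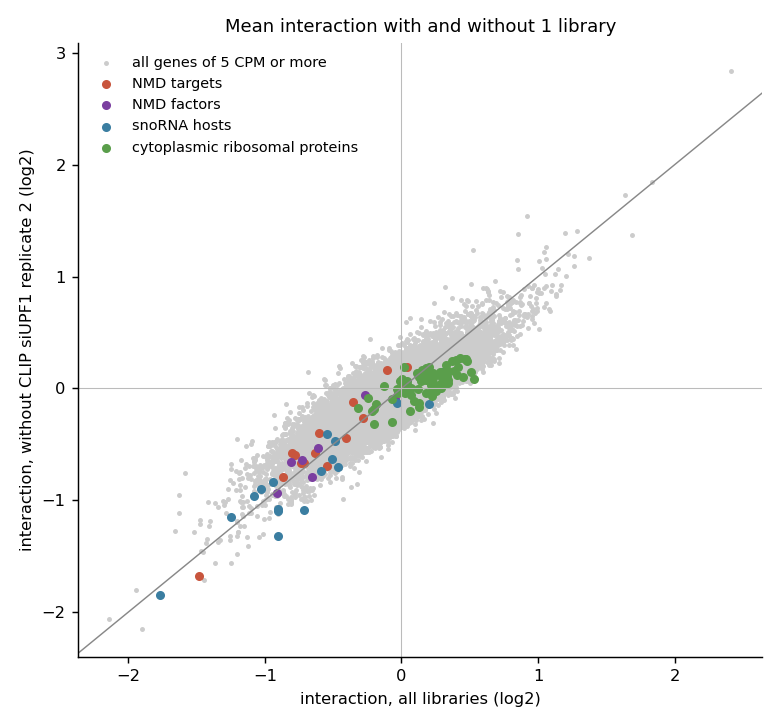
Mean interaction (log2) of 11954 genes of at least 5 CPM with all libraries (horizontal axis) and without CLIP siUPF1 replicate 2 (vertical axis), with 4 lists in colour and the line of equal values. The NMD targets, NMD factors and snoRNA hosts with negative values stay near the line, while the ribosomal protein genes, with a median of 0.20, have a median of 0.069 without that library.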

How the data were processed

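Total RNA (500 ng) was depleted of ribosomal RNA and sequenced paired-end, per the labels' protocols. The authors deposited a table of expected counts made with RSEM, and the submitters' processing notes also name cutadapt, STAR, DESeq2 and the build hg19 without versions or settings. No source used here gives the annotation release or the strand setting. The 10.3% of values that were not whole were rounded. Genes were filtered with filterByExpr over the 16 groups, scaled by TMM and fitted with the quasi-likelihood test of edgeR 4.0.16 (R 4.3.3) across all 48 libraries (32 residual degrees of freedom), with Benjamini-Hochberg adjustment over 19129 genes. Standard errors were derived from the log2 fold change and its F statistic, and intervals are 95%. In data simulated for the interaction (18833 genes), 17% of 100 genes changed by 0.5 on the log2 scale and 57% of 100 changed by 1 were recovered, with 5 unchanged genes called. Far fewer genes changed there than the 4380 called in the data, so these rates need not hold for the real test. Genes were named by rule, with clone-named loci and annotated pseudogenes skipped outside the gene lists. After UPF1 came the 12 lowest and 12 highest interactions among genes of at least 5 CPM called also in each mutant line and without CLIP siUPF1 replicate 2, then 4 and 4 with larger responses than in CLIP, 5 and 5 that moved alike in the 3 lines, and up to 4 called members of each gene list, while any NMD target, NMD factor or snoRNA host could be named. The members and lists were chosen with earlier results of these data known. GENCODE v29 gave gene types, GC content, exon overlaps and the UPF1 codons. Replicate numbers were not used to pair samples, since neither the labels nor every same-number correlation tied them, and no libraries were duplicates. The alternatives were RLE size factors, DESeq2 1.42.0, no low-count filter, a fit of the lines compared only, a replicate block, each library left out and, chosen after seeing the data, GC offsets. Of the listed genes 3 are counted but not reported here by name. P-values measure the spread between the deposited triplicates.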

Additional observations from a re-analysis of the deposited data

Results flagged for a closer look

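The interaction itself is a difference between lines under 1 contrast, and it was called for 4380 genes between the mutant lines and CLIP. The same difference against WT was called for 1275 genes. Among the genes named for the size of their interaction or response, the gene lists apart, 11 also had a mutant response that differed from that of WT by the interaction test of edgeR. The response was higher than in WT by 1.9 for ACTA2, 1.18 for DNAH6, 0.61 for CAP2, 0.39 for TIMP3, 1.12 for FILIP1L and 1.41 for ARC on the log2 scale. It differed by -0.57 for PITHD1, -0.69 for MAP2K6, -1.09 for FAM64A, -0.93 for FADS2 and -1.25 for HTRA1. The calls of MAP2K6 and TIMP3 against WT were lost under 10 and 18 alternatives. These comparisons share the mutant libraries with the interaction against CLIP.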

How the results depend on the processing

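The 31 genes named for an interaction kept their direction and call under all 26 alternatives run on them. They had been chosen for large interactions called with all libraries and without CLIP siUPF1 replicate 2, itself among the alternatives. Their stability was therefore in part fixed by the choice. Counts below are genes called higher and lower. Fitting only the lines compared gave 685 and 1504 for the mean interaction, 222 and 703 for K498A, 459 and 1004 for DE636AA, 2 and 0 for the siNT difference, and 267 and 322 against WT. DESeq2 gave 433 and 381 for the siNT difference, and no low-count filter gave 671 higher there and 18 and 24 for K498A minus DE636AA. The labels do not say that replicate numbers pair the samples, and same-number correlations ran from -0.19 to 0.339 (median 0.0704). As a hint from the data, 14 of 18 libraries were closest to their own number, and 18 of 45 same-number pairs against 13 of 90 others exceeded 0.1. A replicate block gave 2264 and 3286 for the mean interaction, 1340 higher for K498A, and 911 and 609 for the siNT difference. GC offsets, chosen after seeing the data, gave 1370 higher for K498A, 1827 for DE636AA, 710 and 710 for the siNT difference, 1233 and 1283 against WT, and 11 NMD targets higher than WT. Without CLIP siUPF1 replicate 2 as well, these were 1341, 1877, 1011 and 1110, 1531 and 1620, and 12. With a replicate block and GC offsets they were 1925, 2362, 1328 and 1271, 1627 and 1647, and 13, with 2768 higher for the mean interaction. Leaving out each library in turn moved the mean interaction between 1068 (CLIP siUPF1 replicate 2) and 2638 (CLIP siUPF1 replicate 1) higher and 2145 to 3539 lower, K498A between 408 (K498A siNT replicate 3) and 1693 (CLIP siUPF1 replicate 1) and 1185 to 2745, DE636AA between 723 (DE636AA siNT replicate 3) and 2173 (CLIP siUPF1 replicate 1) and 1621 to 2989, and the siNT difference between 3 (CLIP siNT replicate 1) and 615 (DE636AA siNT replicate 1) and 4 to 622. The difference from WT ran from 330 (WT siNT replicate 2) to 980 (CLIP siUPF1 replicate 2) and 464 to 1110, and the siUPF1 difference from 2613 to 3832 and 3562 to 4532. NMD targets called lower ran from 9 to 11, NMD factors 5 to 6, snoRNA hosts 11 to 14 and ATF4 targets 9 to 14. Against WT, NMD targets ran from 5 (WT siNT replicate 1) to 11 (WT siUPF1 replicate 3), NMD factors 4 to 5 and cholesterol genes 10 to 13. The cause of these changes was not tested. With 3 libraries per group, an absent call does not show equal responses. Changes of 0.5 on the log2 scale were mostly not recovered in simulated data. Far fewer genes changed there than were called here, so that rate need not hold for these data.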

Other observations

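Genes outside the named groups also differed by line after knockdown. SPRY4 and ETV5, feedback and transcription factor genes of the ERK pathway, had mutant responses above those of WT, by 1.58 (adjusted p = 5.58e-05) and 1.41 (adjusted p = 0.000586). Both were named after their values were seen. SPRY4 read 1.22, 0.925 and 0.887 CPM in WT siUPF1, 2.19, 2.22 and 2.81 CPM in K498A siUPF1, 3.19, 3.23 and 4.73 CPM in DE636AA siUPF1 and 2.49, 2.92 and 3.12 CPM in CLIP siUPF1. FOS, an immediate early transcription factor also named after its values were seen, had a mutant response above that of WT by 1.29 (adjusted p = 0.00905). Of 59 tested histone genes 2 were called lower in the interaction and 0 higher, and of 16 mitochondrially encoded genes 1 was lower and 0 higher. These are smaller shares than the 14.3% lower and 8.55% higher over all genes. The mitochondrially encoded genes made up 0.631% of the counts in CLIP siUPF1 replicate 2.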
